A study of Mus musculus with 33 samples.

Results

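Microglia, the resident macrophages of the brain, were compared between 5xFAD mice and wild-type (WT) mice, both 9 months old. The comparison used 6 of the series' 33 RNA-seq libraries, chosen by their titles: 3 from 5xFAD and 3 from WT. The labels give all of these mice as C57BL/6, female and untreated, with the genotypes 5xFAD/WT and WT, so that neither group carries a deletion of Irf8, the gene removed in other groups of the series. Microglia were dissociated from brain tissue without enzymes, sorted by flow cytometry and lysed, and their total RNA was amplified as cDNA with a kit (SMART-Seq v4) that does not mark the strand. Of the 54146 genes in the files, 30873 had no count in the 6 libraries, 12821 had counts but did not pass a filter on low counts, and 10452 were tested. The results below go through these genes by function, from the lysosome to translation. Members of a list named outside the rule given with the processing, chiefly those that did not pass the test, were chosen after their values were seen.

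The 5xFAD line carries human transgenes with mutations of familial Alzheimer's disease, driven in neurons by a Thy1 promoter, and amyloid plaques form in its brain. Microglia gather around such plaques and take up a programme known as disease-associated microglia. In that programme the lipid receptor Trem2, signalling through its adaptor Tyrobp, brings up genes of lipid handling, lysosomal digestion and phagocytosis, while genes typical of resting microglia are known to go down. The model expresses its transgenes in neurons and not in microglia, so these RNA levels describe cells around the neurons that make the peptide. In bulk RNA of this kind, a change in the share of cells in a state and a change in RNA per cell cannot be told apart.

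Genes typical of microglia were abundant in all 6 libraries. A list of 38 homeostatic microglial genes took 13.2% to 14.7% of the counts in WT and 15.2% to 16.6% in 5xFAD. Without Cst3, the largest of them, the list took 9.8% to 10.1% in WT and 7.87% to 8.87% in 5xFAD, so that the higher share in 5xFAD lay in that gene. Irf8, a transcription factor of myeloid cells, was at 698, 759 and 707 CPM (counts relative to the library's total, adjusted with edgeR's TMM factors) in WT and at 713, 648 and 658 CPM in 5xFAD, so the gene deleted elsewhere in the series was expressed in both groups. Markers of other cells took small shares, some of which differed between the groups. A list of 15 neutrophil genes had 9 counts in all in WT and 18 in 5xFAD, and 0 of the 15 passed the filter. Red blood cell genes took at most 0.00661% of the counts of any library. The shares of monocyte genes (at most 0.00209%), T and NK cell genes (at most 0.00145%) and neuronal genes (at most 0.00314%) were as small, with 8 of 13 monocyte and 12 of 20 T and NK cell markers at 0 in WT. The T and NK cell list had 25 counts in WT and 247 in 5xFAD, among them Ccl5. Endothelial and mural cell genes took 0.0696% to 0.0792% in WT and 0.0916% to 0.117% in 5xFAD, and border macrophage genes 0.0289% to 0.0339% and 0.0132% to 0.0218%. Dendritic cell genes took 0.315% to 0.337% and 0.345% to 0.36%, most of it Siglech, which is also a microglial gene, and without Siglech 0.0288% to 0.0319% and 0.0144% to 0.0251%. B and plasma cell genes took 0.0796% to 0.0877% in WT and 0.0858% to 0.109% in 5xFAD, with 10 of the 14 genes at 0 in WT and 9 in 5xFAD. The astrocyte list took 0.0487% to 0.0575% and 0.0564% to 0.0708%, and the oligodendrocyte list 0.0321% to 0.0364% and 0.0316% to 0.0356%. The part of these shares in the results was not tested. Thy1, the neuronal gene whose promoter drives the transgenes, had 0 counts in WT and 1 in 5xFAD.

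Several features of the libraries moved with the groups. The counts in genes were 5757466, 1673676 and 605376 in WT and 11922037, 5442242 and 1928739 in 5xFAD. Reads outside annotated genes made up 9.68% to 11.9% in WT and 5.72% to 6.05% in 5xFAD. Reads over more than 1 gene, counted for none, made up 6.13% to 6.34% in WT and 7.53% to 7.87% in 5xFAD. Those that map to several places, also not counted, made up 4.86% to 5.2% and 5.92% to 6.85%. The labels give every animal as female, but the 3 WT libraries held 275 to 307 CPM of Y-linked genes with 0 to 1.65 CPM of Xist, 5xFAD replicates 1 and 2 had no Y-linked count and 76.2 and 104 CPM of Xist, and 5xFAD replicate 3, the shallowest of its group, held 156 CPM of Y-linked genes with 6.74 CPM of Xist. By this RNA all WT libraries and 5xFAD replicate 3 go against their label. The part of depth, of reads outside genes, of reads counted for no gene and of sex in the results was not tested beyond the fits named beside them. By the labels each brain was processed on its own, but no library is tied to a named mouse, so the p-values measure the spread between libraries.

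Differences between the groups ran through much of the transcriptome. A gene was called when its Benjamini-Hochberg adjusted p in edgeR's quasi-likelihood test was under 0.05. Of the 10452 genes, 4546 (43.5%) were called: 2174 (20.8%) were higher in 5xFAD and 2372 (22.7%) were lower. In 4297 of them (41.1% of the genes tested) the 3 libraries of one group did not overlap the 3 of the other. Such separation was common here, found in 5663 of the 10452 genes whether called or not. Called genes with a log2 fold change of at least 1 numbered 956 up and 1162 down, and those of at least 3 numbered 18 up and 14 down. Without WT replicate 1, the deepest WT library, 1321 genes were called higher and 1520 lower.

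The direction of change followed the length of the gene's exons. Among the shortest genes, a 5th of those tested (53 to 2460 bases of exon), the median log2 fold change was 0.76 and 55% were called higher against 2.34% called lower. Among the longest (of equal number, 7561 to 123179 bases) the median was -0.72, with 2.97% called higher and 53% lower. Across 10450 genes, which are not independent replicates, Pearson's r between the fold change and log2 exon length was -0.575 and Spearman's rho was -0.622, as a description. A second fit therefore removed each library's trend of level with exon length, whatever its source, as an alternative chosen after seeing the data. In that fit 1375 genes (13.2%) were called higher and 1160 (11.1%) lower. Of the 4546 genes called without the offset, 1891 were called the same way with it and 347 had the opposite sign. Dst, a cytolinker with 41155 bases of exon, was called lower without the offset (-0.51, adjusted p = 0.0495) and higher with it (0.69, adjusted p = 0.00968). The cause of the length trend was not tested.

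**Figure D1:**
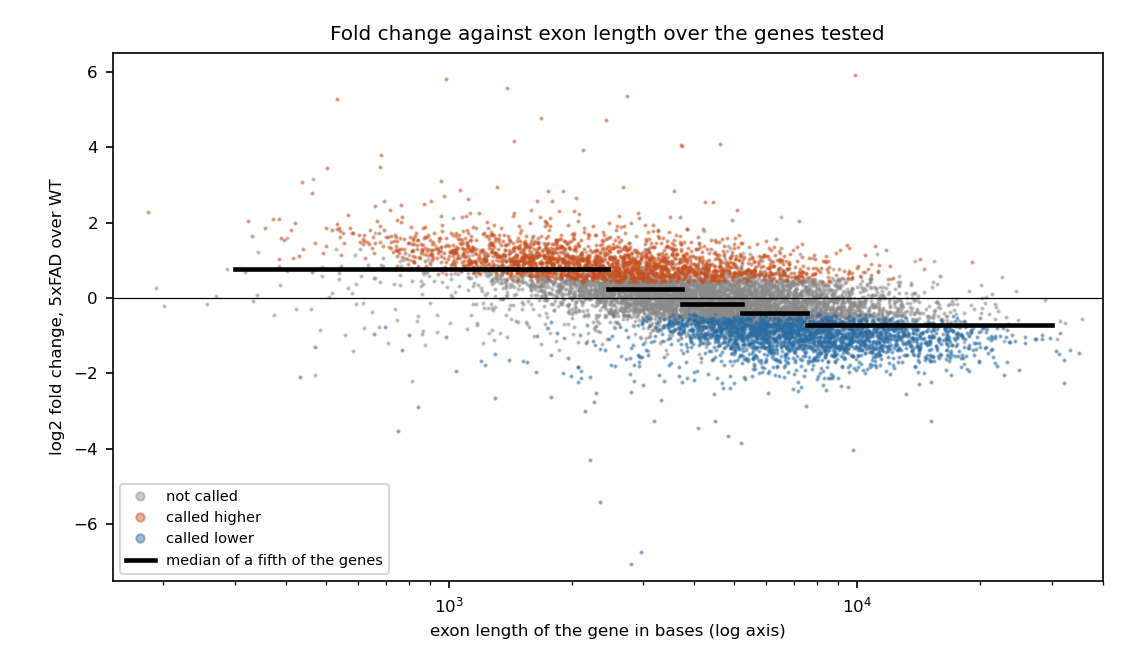
Log2 fold change (5xFAD over WT, vertical axis) of each tested gene against its exon length in bases (log axis), coloured by call, with a black bar at the median of each of 5 equal parts of the genes by length. The medians step down from 0.76 in the shortest part to -0.72 in the longest.

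Further fits bounded the counts. A fit of all 12 libraries aged 9 months, in which 2 further groups share the estimate of the spread, called 264 of 14604 genes higher (1.81%) and 26 lower (0.178%). Those groups are the Irf8 knockout and the 5xFAD Irf8 knockout. The main fit left them out because their libraries hold varying shares of neutrophil and red blood cell RNA. That choice was made with earlier results of these data known. Reads that map to several places made up 12.2% to 35.4% in the 2 further groups, against 4.86% to 6.85% in the 6 libraries. The part of these features in the 12-library counts was not tested. A fit with a term for sex, which rests the comparison on 5xFAD replicate 3 against the WT libraries, called 1698 genes higher (16.2%) and 1709 lower (16.4%). Over the 6-library fit and its 16 alternatives, 178 genes (1.7% of those tested) were called higher in every fit and 25 (0.239%) were called lower in every fit. These genes are pointed out by function below. The counts of each list are to be read beside the shares over all tested genes, 20.8% called higher and 22.7% called lower, or 13.2% and 11.1% with the length offset. Of the genes called higher, 80 (3.68%) reached the filter's level in at most 1 WT library, and of those called lower 149 (6.28%) in at most 1 5xFAD library. Such a gene passed the filter through the group where it is high and had to differ, so its fold and p describe it and support nothing further. Among the genes named below these were Actr3b, Baiap2l2, Bambi, Ccl5, Ch25h, Ddit4, Dgat2, Fabp5, Fhl3, Igf1, Il1b, Mmp12 and Wfdc17, called higher, and Ccl25, Ern1, Fos, Hspa1a and Hspa1b, called lower.

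Most genes of the disease-associated programme were called higher. Its first stage, known to precede Trem2 signalling, had 12 members, of which 10 were called higher and 0 lower, with a median log2 fold change of 1.26 against -0.05 over all genes. Apoe, the apolipoprotein that carries lipid between brain cells, was at 409, 559 and 389 CPM in WT and at 4360, 5700 and 10700 CPM in 5xFAD. Every 5xFAD library lay far above every WT library, a log2 fold change of 3.93 (SE 0.291, adjusted p = 8.49e-07). Lyz2, the lysozyme of macrophages, rose from 204, 288 and 147 CPM to 1150, 1530 and 2260 CPM (2.93, SE 0.262, adjusted p = 3.84e-06). Tyrobp, the adaptor through which Trem2 signals, rose from 1490, 2040 and 1480 CPM to 4390, 7670 and 8450 CPM (2.03, SE 0.23, adjusted p = 2.58e-05). Fth1, the ferritin heavy chain, rose by 1.75 (SE 0.178), Cstb, an inhibitor of cathepsins, by 1.67, and B2m, the light chain of MHC class I, by 1.30. The cathepsins Ctsd (1.22), Ctsl (1.2), Ctsb (1.11) and Ctsz (1.06) rose together. The other members did not pass the test: H2-D1, an MHC class I heavy chain, was at 0.36 and Timp2, a protease inhibitor, at 0.20. Apoe, Lyz2, Tyrobp, Fth1, Ctsb and Ctsl were called higher in every fit. With the length offset the list's median was 0.76 and 7 members were called higher, and B2m (0.15), Cstb (0.38) and Ctsz (0.21) were not.

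The late stage, known to depend on Trem2, had 65 listed genes, of which 53 were tested, 33 were called higher and 3 lower, with a median of 1.16. Cst7, cystatin F, an inhibitor of lysosomal cysteine proteases, was at 9.28, 10.8 and 17.6 CPM in WT and at 238, 612 and 1010 CPM in 5xFAD, so even the lowest 5xFAD library stood many times above the highest WT library. Its log2 fold change was 5.81 (SE 0.456, adjusted p = 1.37e-06) and it was called in every fit. Igf1, a growth factor, had 3 counts in all in WT and 249 in 5xFAD, a ratio of 40.7 with an exact 95% interval for counting error of 13.8 to 199. Igf1 was at 9.2, 10.4 and 56.1 CPM in 5xFAD, highest in replicate 3. Baiap2l2, a membrane-binding protein, had 2 counts in WT and 157 in 5xFAD (ratio 38.5, interval 10.5 to 320). Both passed the filter through the 5xFAD libraries alone.

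Surface receptors and enzymes of the late stage rose by smaller factors than Cst7. Clec7a, the beta-glucan receptor dectin-1, rose from 45.3, 54.0 and 57.2 CPM to 111, 122 and 343 CPM (1.88, SE 0.341, adjusted p = 0.000484). Axl, a receptor for cells exposing phosphatidylserine, rose from 27.5, 35.3 and 39.6 CPM to 93.5, 62.0 and 144 CPM (1.58, adjusted p = 0.000327). Trem2 itself rose from 1300, 1640 and 1070 CPM to 2490, 2620 and 3700 CPM (1.13, SE 0.2, adjusted p = 0.000403), and its groups did not overlap. Lpl, lipoprotein lipase, was at 12.9, 19.3 and 26.4 CPM in WT and at 35.8, 19.7 and 66.4 CPM in 5xFAD. The groups of Lpl overlapped, since 5xFAD replicate 2 lay at the level of WT, and its log2 fold change was 1.15 (SE 0.376, adjusted p = 0.0209). Cd63 (2.14), Cd68 (1.40) and Cd9 (1.37), membrane proteins of endosomes, lysosomes and the surface, were called in every fit. Spp1, osteopontin, was low, at 2.67, 2.84 and 0 CPM in WT and at 6.22, 12.4 and 29.6 CPM in 5xFAD (2.56, SE 0.596, adjusted p = 0.00274). Its exons overlap those of Gm42793, and without strand, reads over both genes are counted for neither.

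Not every gene of the late stage moved. Itgax, the integrin CD11c often used to mark these cells, was at 5.19, 7.96 and 7.33 CPM in WT and at 8.15, 4.88 and 10.3 CPM in 5xFAD, overlapping groups with a log2 fold change of 0.22 (SE 0.396, adjusted p = 0.673). Csf1, the growth factor of macrophages, was at 0.66 (SE 0.317, adjusted p = 0.101). Nrp1, a co-receptor of semaphorins and growth factors (-1.55), Npnt, a matrix protein that binds integrins (-1.21), and Hif1a, the oxygen-sensitive transcription factor (-0.57), were called lower. Of the 12 late-stage genes left out by the filter, Gpnmb, a glycoprotein of lysosomes and melanosomes, had 0 counts in WT and 26 in 5xFAD, at least 4.25-fold higher against a floor of 3 counts over the group. Hpse, heparanase, had 2 and 47 counts (ratio 11.5, interval 3.01 to 97.8), and Tmem163, a zinc transporter, had 1 and 40 counts (ratio 19.6, interval 3.32 to 793). A ratio was made only with at most 3 counts in 1 group and at least 20 in the other, so it was large by selection. Of the 12, only Bcar3 and Bhlhe40 also met that rule, and these genes do not speak for the rest. With the length offset 33 late-stage genes were called higher and 2 lower, beside 13.2% of all genes called higher in that fit, and in the 12-library fit 11 of the 53 were called higher and 0 lower.

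The size of these rises differed among the 5xFAD libraries. Replicate 3 held the highest 5xFAD level for 9 of the 10 first-stage genes and 29 of the 33 late-stage genes called higher, against 1220 of all 2174 genes called higher (56.1%). Replicate 1 was highest for 0 of the first-stage and 2 of the late-stage genes. Cst7 ran from 238 CPM in replicate 1 to 1010 CPM in replicate 3, and Apoe from 4360 to 10700 CPM. Replicate 3 is also the shallowest 5xFAD library and the one with Y-linked RNA. Without it, 2027 genes were called higher and 2182 lower. Cst7 and Apoe were called in that fit too.

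**Figure D2:**
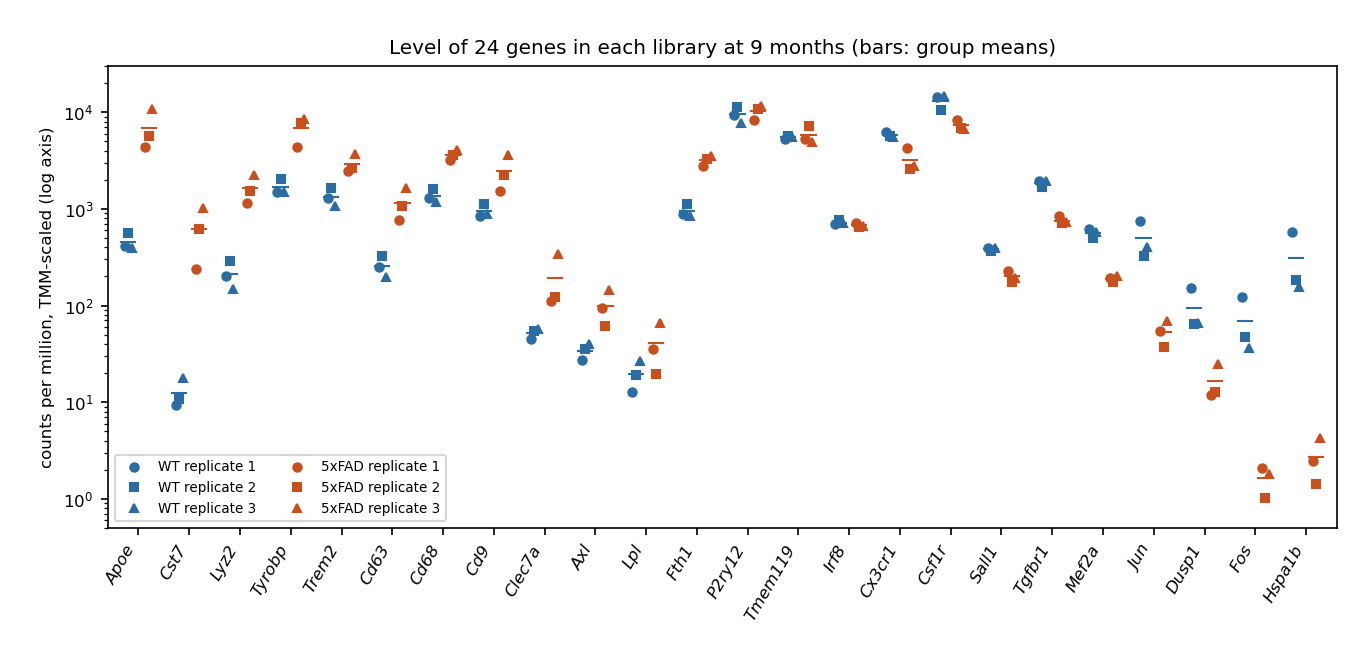
Level of 24 genes in each library in TMM-scaled CPM (log axis), WT in blue and 5xFAD in orange, 1 marker shape per replicate and a bar at each group's mean. Apoe, Cst7 and Lyz2 separate upward, P2ry12, Tmem119 and Irf8 overlap, and Jun, Dusp1, Fos and Hspa1b separate downward.

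Homeostatic genes were split. Of the 38, 8 were called higher and 13 lower, shares near those of all genes at the high end (20.8%) and above them at the low end (22.7%), and their median was -0.02. With the length offset 5 were called higher and 16 lower, with a median of -0.27. P2ry12, the purinergic receptor that steers microglial processes, was at 9420, 11300 and 7790 CPM in WT and at 8280, 10800 and 11700 CPM in 5xFAD (0.11, SE 0.189, adjusted p = 0.657). Tmem119, a microglial surface protein, overlapped in the same way (0.08, SE 0.177, adjusted p = 0.747) but was called lower with the length offset (-0.43, adjusted p = 0.0433). Siglech, a sialic acid-binding lectin, was called higher (0.46, adjusted p = 0.0305). Cst3, cystatin C, another inhibitor of cysteine proteases and the gene with the most counts, took 3.43% to 4.64% of all counts in WT and 6.38% to 8.74% in 5xFAD, and rose (log2 fold change 1.23, SE 0.205, adjusted p = 0.000272). In the length-offset fit it was at 0.29 and not called. Fcrls, a microglial Fc receptor-like protein, rose by 0.94 and was called in every fit.

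Receptors and transcription factors were among the homeostatic genes that fell. Csf1r, the receptor on which microglial survival depends, was at 14300, 10400 and 14700 CPM in WT and at 8340, 6830 and 6750 CPM in 5xFAD, without overlap (-0.85, SE 0.183, adjusted p = 0.00168). Cx3cr1, the fractalkine receptor, fell from 6270, 5600 and 5520 CPM to 4240, 2560 and 2770 CPM (-0.86, SE 0.196, adjusted p = 0.00229). Sall1, a transcription factor of microglial identity, fell from 395, 369 and 389 CPM to 229, 176 and 194 CPM (-0.94, SE 0.165, adjusted p = 0.000388). Tgfbr1 (-1.29), a TGF-beta receptor, Mef2a (-1.57), a transcription factor, and Jun (-3.25), a subunit of AP-1, fell in every fit. Csf1r, Cx3cr1 and Sall1 kept their call with the length offset and the term for sex, and lost it in the 12-library fit (adjusted p = 0.519, 0.561 and 0.97).

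Transcription factors and the TGF-beta pathway leaned downward. TGF-beta keeps microglia in their resting identity and acts through Smad proteins. Of 24 pathway genes tested, 2 were called higher and 13 lower, with a median of -0.65, and of 26 identity factors 2 were called higher and 14 lower, with a median of -0.64. The receptors Tgfbr1 and Tgfbr2 (-1.14), the ligand Tgfb1 (-0.59), the mediator Smad3 (-1.0) and Itgav (-1.84), an integrin chain that frees the ligand from its latent form, were called lower. Tgfbr1 was at 1920, 1690 and 1930 CPM in WT and at 833, 713 and 723 CPM in 5xFAD. Bambi, a decoy receptor of the family, was called higher, from 2.2, 2.28 and 1.47 CPM to 8.32, 11.4 and 14.5 CPM (2.34, SE 0.427, adjusted p = 0.000511). Among the factors, Mef2c fell by 1.38 and Ets1 by 1.2, Batf (1.19) and Cebpb (1.05) rose, and Spi1, which encodes PU.1, was at 0.38 (adjusted p = 0.0584). The median exon length was 5308 bases over the pathway and 5364 over the factors, against 4438 over all tested genes, and with the length offset their medians were -0.43 and -0.30.

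Around Trem2, the receptor and its adaptors were higher while several of the enzymes downstream were lower. Of 22 genes tested, 8 were called higher and 7 lower. Besides Trem2 and Tyrobp, Hcst, another adaptor of such receptors, rose by 1.64 and Ms4a6d, of a family near human Alzheimer's risk loci, by 1.08. Syk, the kinase that docks on Tyrobp, fell from 162, 149 and 192 CPM to 92.5, 83.5 and 64.5 CPM (-1.03, SE 0.182, adjusted p = 0.000403). Plcg2 (-0.92), the phospholipase that follows, Inpp5d (-0.74), the phosphatase SHIP1 that opposes it, and Adam10 (-1.27) and Adam17 (-0.93), the proteases that shed Trem2, were called lower. Under the length offset Hcst, Ms4a6d, Syk (-0.43, adjusted p = 0.0618) and Inpp5d (-0.26, adjusted p = 0.222) were not called, while Trem2, Tyrobp, Plcg2, Adam10 and Adam17 were. The list's median was 0.18 without the offset and -0.25 with it, where 6 genes were called higher and 6 lower.

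Of 30 lipid genes tested, 8 were called higher and 8 lower (26.7% each), near the shares of 20.8% and 22.7% over all genes. Besides Apoe and Lpl, Ch25h, which makes 25-hydroxycholesterol, was at 0.472, 1.14 and 2.93 CPM in WT and at 18.5, 39.2 and 71.2 CPM in 5xFAD, from 7 counts in all in WT and 522 in 5xFAD, and its exons overlap Gm26902. Npc2, the cholesterol carrier of the lysosome, rose from 380, 493 and 347 CPM to 789, 999 and 1320 CPM (1.34, SE 0.203, adjusted p = 0.000145) and was called in every fit. Fabp5, a fatty acid-binding protein, rose by 2.83, Dgat2, which makes triglycerides, by 1.76 and Plin2, a coat of lipid droplets, by 0.54. The exporters Abca1 (-1.04) and Abca7 (-1.32), the receptor Lrp1 (-1.54) and Acsl4 (-1.63), which activates fatty acids, were called lower, of which Abca1 was not called with the length offset (-0.37, adjusted p = 0.113). Apoc4, an apolipoprotein encoded beside Apoe, had 0 counts in WT and 14, 17 and 17 counts in 5xFAD, at least 7.84-fold higher. Of 24 cholesterol synthesis genes 3 were called higher (12.5%) and 4 lower (16.7%). The medians of the lipid and cholesterol synthesis lists were alike, at 0.17 and 0.16.

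The lysosome, where microglia break down what they take up, held many of the genes called higher, led by its proteases. Of 15 cathepsins and cystatins tested, 11 were called higher and 0 lower, with a median of 1.06. Ctsd, an aspartyl protease (Ensembl ENSMUSG00000007891.16, chromosome 7, minus strand), was at 7580, 8950 and 6740 CPM in WT and at 16800, 18800 and 18700 CPM in 5xFAD (1.22, SE 0.174, adjusted p = 9.77e-05). Ctsb was at 4580, 5020 and 4420 CPM in WT and at 8770, 9270 and 12200 CPM in 5xFAD (1.11, SE 0.178, adjusted p = 0.000211). Ctsc (0.18), Ctso (0.27) and Lgmn (0.12) did not pass the test. After the offset 9 of the 15 were called higher, and Ctsb (1.46), Ctsl (1.59) and Ctsh (1.18) were larger there.

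Of 40 lysosomal hydrolases, 14 were called higher and 8 lower, with a median of 0.24. Fuca1, a fucosidase (1.02), and Hexa, a hexosaminidase chain (0.78), rose, while Ids (-1.29) and Arsb (-1.10), sulfatases of glycosaminoglycans, and Gaa (-0.75), which degrades glycogen, fell. Grn, progranulin, was at -0.26 (adjusted p = 0.336). Of 33 membrane proteins and pump subunits, 16 were called higher and 4 lower, with a median of 0.39 that was 0.36 with the length offset. Among subunits of the proton pump Atp6v1f rose by 1.57, Atp6v0e by 1.44, Atp6v1g1 by 1.28, Atp6v1e1 by 1.09 and Atp6v0b by 0.97. Atp6v0b was at 519, 692 and 575 CPM in WT and at 966, 1360 and 1150 CPM in 5xFAD (SE 0.181, adjusted p = 0.000607). The subunit Atp6v0a1 (-0.79), the nucleoside transporter Slc29a3 (-1.19) and the membrane protein Laptm5 (-0.73) fell. Given the length offset, Atp6v1g1 (0.27, adjusted p = 0.207), Atp6v0b (0.36, adjusted p = 0.0777) and Atp6v0a1 (-0.40, adjusted p = 0.0925) were not called, and Atp6v1f (0.53), Atp6v0e (1.39) and Atp6v1e1 (1.14) were. Cd68, the lysosomal glycoprotein used to mark phagocytic microglia, rose from 1280, 1610 and 1180 CPM to 3170, 3580 and 4040 CPM (1.40, SE 0.178, adjusted p = 4.65e-05).

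Many lysosomal genes carry the E-box CACGTG, the core of the sites bound by Tfeb and its relatives, near their start. In RefSeq promoter windows (250 bases before to 50 after the start, GRCm38.p6), read on both strands, CACGTG stood in 7.15% of all 32851 windows and in 10.3% of the windows of tested genes. It stood in 5 of 18 windows of cathepsins and cystatins (27.8%), 7 of 40 of hydrolases (17.5%) and 7 of 34 of membrane proteins and pump subunits (20.6%). The share was 11.6% over all genes called higher and 10.4% over those called lower. Among other lists it stood in 5 of 26 windows of heat shock chaperones (19.2%) and 0 of 52 of interferon-stimulated genes. Below are the 250 bases before the start of Ctsd (chr7:142387828-142388077, minus strand) and Atp6v0b (chr4:117887330-117887579, minus strand), shown because both rose and carry the motif more than once. Capitals mark CACGTG, which begins 245 and 98 bases before the start in Ctsd and 36 and 18 bases before it in Atp6v0b.
Ctsd: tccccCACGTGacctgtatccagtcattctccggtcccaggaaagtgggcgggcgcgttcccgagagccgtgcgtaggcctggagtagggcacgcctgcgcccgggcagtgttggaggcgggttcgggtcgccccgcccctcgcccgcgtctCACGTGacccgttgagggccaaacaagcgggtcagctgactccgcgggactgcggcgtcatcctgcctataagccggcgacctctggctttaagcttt
Atp6v0b: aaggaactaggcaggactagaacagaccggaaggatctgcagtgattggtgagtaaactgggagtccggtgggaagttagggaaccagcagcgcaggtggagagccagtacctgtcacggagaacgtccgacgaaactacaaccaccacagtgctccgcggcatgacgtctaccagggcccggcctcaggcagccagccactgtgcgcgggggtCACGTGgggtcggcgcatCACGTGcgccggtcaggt
Tfeb itself (-0.01) and Mitf (-0.23) did not pass the test, and Tfe3 was called lower (-0.65). Of 31 regulators and autophagy genes 8 were called higher and 8 lower (25.8% each, near the shares over all genes): Lamtor4 (1.5), of the complex that recruits mTORC1 to the lysosome, and Gabarap (1.32), of autophagosome membranes, rose in every fit, while Mtor (-1.05) and its partner Rptor (-1.16) fell without the length offset and were not called with it.

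Receptors for debris and antibody differed by family. Of 8 tested Fc receptors 6 were called higher and 0 lower, with a median of 0.97, which was 0.44 with the length offset. Fcer1g, the signalling chain shared by Fc receptors, rose from 944, 1250 and 946 CPM to 2390, 3500 and 3730 CPM (1.61, SE 0.199, adjusted p = 3.81e-05) in every fit. Fcgr3 rose by 1.29, Fcgr4 by 1.33, Fcgr2b by 1.0 and Fcgr1 by 0.65, while Fcgrt (0.38) and Fcrl1 (0.22) did not pass the test. Among 9 C-type lectins and galectins 6 were called higher and 0 lower, including Lgals3, galectin-3, which binds Trem2 (2.30). Of 20 Siglecs and paired inhibitory receptors 8 were called higher and 1 lower. Pdcd1, the receptor PD-1, was at 14.8, 18.2 and 22 CPM in WT and at 33.4, 29.1 and 94.7 CPM in 5xFAD (1.52, SE 0.386, adjusted p = 0.00473), with replicate 3 well above the others.

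Genes of engulfment leaned the other way. Of 22 phagocytosis and debris receptors, 7 were called higher and 11 lower, with a median of -0.52 that was -0.38 with the length offset. Mertk, the receptor for apoptotic cells related to Axl, fell from 746, 617 and 664 CPM to 507, 362 and 309 CPM (-0.78, SE 0.19, adjusted p = 0.00367). Itgav (-1.84), Itgb3 (-1.22), the exchange factors Dock1 (-1.59) and Dock2 (-1.77), and their partner Elmo1 (-1.26) were called lower. Dock2 fell from 262, 241 and 343 CPM to 95.9, 67.3 and 82.6 CPM in every fit. Rac2, the small GTPase of blood cells, was called higher (1.07). Complement was split: C1qa rose by 1.26, C1qb by 0.98 and C1qc by 0.94, the 3 chains of the molecule that starts the classical pathway, while Itgam (-1.16) and Itgb2 (-0.62), the chains of complement receptor 3, fell. Under the length offset C1qa (0.21), C1qb (-0.03) and C1qc (0.30) were not called, and Itgam and Itgb2 were. C3, the central component, had 1 count in WT and 7 in 5xFAD.

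Most chemokine ligands tested were called higher. Of 12 ligands tested 10 were called higher and 1 lower, with a median of 1.71. With the length offset 5 were called higher and 0 lower, with a median of 1.00. Ccl6, a ligand made by myeloid cells, rose from 174, 261 and 295 CPM to 782, 1420 and 2120 CPM (2.58, SE 0.293, adjusted p = 2.58e-05) in every fit. Ccl3 and Ccl4, which attract myeloid cells and lymphocytes, rose from 55.1, 33.0 and 22 CPM to 113, 194 and 379 CPM (2.47) and from 66.6, 39.2 and 38.1 CPM to 177, 237 and 424 CPM (2.44). Ccl5, also a marker of T and NK cells, was at 0.944, 0 and 0 CPM in WT and at 8.59, 3.25 and 4.22 CPM in 5xFAD, from 6 counts in all in WT, and its call (adjusted p = 0.00206) was lost with the term for sex (adjusted p = 0.0523), the length offset (0.0622) and 12 libraries (0.558). Ccl12 (1.86), Ccl9 (1.56) and Cxcl16 (1.12) rose as well, and Ccl25 was called lower (-1.54). Of 19 chemokine and attractant receptors 5 were called higher and 2 lower.

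Of 34 cytokine and inflammasome genes 8 were called higher and 7 lower, shares near those of all genes. Il1b rose from 2.36, 2.28 and 1.47 CPM to 5.52, 13.2 and 36.2 CPM (2.83, SE 0.642, adjusted p = 0.00226), most in replicate 3, and its exons overlap the antisense gene Il1bos. Tnf was at 0.52 and Il6 at 0.42, neither past the test. Il1rn, the antagonist of IL-1 receptor signalling, had 2 counts in WT and 57, 8 and 6 counts in 5xFAD (ratio 17.4, interval 4.64 to 146). Nos2 and Arg1, used to label macrophage polarisation, had 0 and 3 counts in WT and 0 and 3 in 5xFAD. Il6st, the shared receptor chain gp130, fell from 346, 242 and 377 CPM to 124, 76.6 and 77.8 CPM (-1.77, SE 0.219, adjusted p = 3.81e-05) in every fit. Of 24 Toll-like receptors and adaptors 3 were called higher and 6 lower: the lipopolysaccharide co-receptors Ly96 (1.22), Ly86 (1.16) and Cd14 (0.85) rose, Tlr2 (0.33) and Tlr4 (-0.21) did not pass the test, and Tlr3 fell (-0.74). Among growth factors Vegfb rose (0.79) besides Igf1 and Spp1.

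Of 42 interferon-stimulated genes tested, 22 were called higher (52.4%) and 4 lower, with a median of 0.70, and together the list's 55 genes took 0.124% to 0.153% of the counts in WT and 0.161% to 0.169% in 5xFAD. Ifi27l2a rose from 5.51, 8.53 and 10.3 CPM to 39.1, 42.3 and 67.6 CPM (2.78, SE 0.311, adjusted p = 2.52e-05). Ifitm3, which restricts viral entry (1.91), and Bst2, tetherin (1.19), rose too. Ifit3, an antiviral protein, was at 9.44, 9.1 and 17.6 CPM in WT and at 30.1, 25.8 and 30.8 CPM in 5xFAD (1.43, SE 0.272, adjusted p = 0.000656). Isg15, a ubiquitin-like modifier, was at 3.62, 4.55 and 1.47 CPM in WT and at 9.38, 8.33 and 9.05 CPM in 5xFAD (1.31, SE 0.391, adjusted p = 0.0129). With the length offset 5 of the 42 were called higher (11.9%, beside 13.2% of all genes) and 3 lower, with a median of 0.20, and with the term for sex 12 were called higher and 3 lower. Ifit3 (0.73, adjusted p = 0.0669) and Isg15 (0.18, adjusted p = 0.771) were not called under that offset. Irf7, the factor that amplifies the response, was called with and without it (1.48 and 1.44), Irf9 (0.21) was called in neither, and Jak1 (-0.95), Jak2 (-1.14) and Stat3 (-0.78) were called lower.

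The interferon response element core GAAANNGAA, read on both strands, stood in 29 of 52 promoter windows of this list (55.8%) and in 8.56% of all windows. The bases before the start of Isg15 (chr4:156200819-156201068, minus strand) and Ifit3 (chr19:34583279-34583528, plus strand) are shown, with matches to the core in capitals. Ifit3 belongs to the fixed set of named genes, and Isg15 was chosen outside it. Matches begin 78 bases before the start in Isg15, where overlapping matches run together, and 155, 121 and 102 bases before it in Ifit3, where they lie on the other strand.
Isg15: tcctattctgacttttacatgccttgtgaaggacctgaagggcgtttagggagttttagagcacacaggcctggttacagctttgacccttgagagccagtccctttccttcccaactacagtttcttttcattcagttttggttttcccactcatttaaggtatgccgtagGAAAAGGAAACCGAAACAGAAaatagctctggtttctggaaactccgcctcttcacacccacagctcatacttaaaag
Ifit3: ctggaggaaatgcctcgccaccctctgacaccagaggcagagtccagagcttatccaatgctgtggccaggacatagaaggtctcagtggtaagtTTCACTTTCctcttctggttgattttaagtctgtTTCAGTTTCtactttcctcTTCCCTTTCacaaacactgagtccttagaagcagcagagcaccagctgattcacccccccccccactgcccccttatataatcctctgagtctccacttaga
Over all genes called higher the core stood in 8.59% of windows, and over those called lower in 6.21%.

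Of 24 MHC class I genes 6 were called higher (25%) and 4 lower (16.7%), near the shares of 20.8% and 22.7% over all genes. Their median was 0.29, and with the length offset it was -0.13, with 2 called higher and 2 lower. B2m was at 2090, 2440 and 2180 CPM in WT and at 4100, 5810 and 6630 CPM in 5xFAD (SE 0.191, adjusted p = 0.00012), while the heavy chains H2-K1 (0.41, adjusted p = 0.0834) and H2-D1 (0.36, adjusted p = 0.146) did not pass the test. Reads of the heavy chain family that map to several near-identical copies are counted for none of them. The immunoproteasome subunit Psmb8 (1.07) and the activators Psme1 (0.97) and Psme2 (1.04) rose. Of 15 MHC class II genes 8 were called higher and 0 lower, with a median of 0.79, and with the length offset 3 were called higher and 0 lower, with a median of 0.24. Cd83, which stabilises class II at the surface, rose from 243, 303 and 264 CPM to 726, 864 and 1230 CPM (1.80, SE 0.202, adjusted p = 2.52e-05). Cd74, the invariant chain, was at 72.4, 145 and 119 CPM in WT and at 213, 178 and 233 CPM in 5xFAD (0.92, SE 0.223, adjusted p = 0.00361), and H2-Aa (0.86) and H2-Ab1 (0.68) did not pass the test. All 8 class II genes called higher were highest in replicate 3.

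Of 33 genes of iron storage and defence against oxidation 16 were called higher and 3 lower, and 14 did not pass the test. Their median was 0.69, and with the length offset it was 0.39, with 10 called higher and 1 lower. Fth1 was at 877, 1120 and 839 CPM in WT and at 2800, 3240 and 3490 CPM in 5xFAD, and Ftl1, the light chain of ferritin, rose by 1.40. Mt1, a metallothionein that binds zinc and copper, rose from 65.8, 72.8 and 63.0 CPM to 176, 226 and 334 CPM (1.85, SE 0.221, adjusted p = 3.13e-05). The peroxidases Prdx1 (1.5), Gpx1 (1.45), Gpx4 (1.32) and Prdx5 (1.04) rose, and with Mt1 and Fth1 they did so in every fit. Hmox1, which breaks down haem, rose by 0.79 and was not called with the length offset (0.08). Nfe2l2, the factor Nrf2 behind many of these genes, was at 0.38 (adjusted p = 0.0732), and Ireb2 (-1.25), an iron-sensing RNA-binding protein, Gclc (-0.79), which makes glutathione, and Ncoa4 (-0.66), which sends ferritin to the lysosome, fell. Of 8 NADPH oxidase genes, Cyba (1.18), Rac2 (1.07) and Ncf4 (0.53) rose, and the others, among them Cybb (0.37), Ncf1 (0.14), Rac1 (0.10) and Hvcn1 (0.04), did not pass the test.

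The steepest falls were heat shock and immediate early genes. Hspa1b, an inducible chaperone of the Hsp70 family (ENSMUSG00000090877.3, chromosome 17), was at 582, 184 and 157 CPM in WT and at 2.45, 1.42 and 4.22 CPM in 5xFAD. Its log2 fold change of -7.05 (SE 0.51, adjusted p = 8.49e-07) was the largest fall of any tested gene that met the rule for naming, and that of Hspa1a was -6.74 (SE 0.63, adjusted p = 6.6e-06). Fos, the AP-1 subunit induced within minutes of stimulation, was at 123, 47.2 and 36.7 CPM in WT and at 2.1, 1.02 and 1.81 CPM in 5xFAD (-5.40, SE 0.449, adjusted p = 2.33e-06). Jun fell from 752, 329 and 403 CPM to 54.9, 37.2 and 68.8 CPM (SE 0.29, adjusted p = 3.84e-06), and Dusp1, a phosphatase that ends the signal, from 151, 64.8 and 66.0 CPM to 12, 12.8 and 24.7 CPM (-2.70, SE 0.33, adjusted p = 3.53e-05). In each of these genes WT replicate 1 was the highest library and all 3 WT libraries lay above all 3 of 5xFAD. Egr1 (-3.25) and Ier2 (-1.66) fell too. Jun and Dusp1 were called lower in every fit. Hspa1a, Hspa1b and Fos were too, but they reached the filter's level in at most 1 5xFAD library. They passed it through WT and had to differ, so their calls support nothing further. With the length offset the falls of Hspa1b, Hspa1a, Fos, Jun and Dusp1 were larger, and that of Egr1 was slightly smaller (-3.14).

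The rest of both lists moved less. Of 23 heat shock chaperones 1 was called higher and 5 lower, with a median of -0.26. Hsp90aa1, the inducible Hsp90, fell by 1.31 and Hsph1 by 1.16, while Hspa8, the constitutive Hsp70, was at -0.03, Hsf1, the factor that switches these genes on, at -0.24 and Dnajb1, another of its targets, at -0.14, none past the test. Hspb1 had 35 counts in WT replicate 1, 0 and 1 in the other WT libraries, and 1, 0 and 0 in 5xFAD. Of 25 immediate early genes 4 were called higher and 11 lower, with a median of -0.44. Atf3 (0.86), Myc (0.75) and Cebpd (0.82) rose, and Dusp6 (0.18) and Fosl2 (0.18) did not pass the test. This list also marks cells disturbed during dissociation. It took 0.342% to 0.561% of the counts in WT and 0.227% to 0.243% in 5xFAD, the heat shock list 0.36% to 0.526% and 0.247% to 0.311%, and the part of tissue handling in these falls was not tested.

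The heat shock element core GAANNTTC stood in 11 of 26 promoter windows of the chaperones (42.3%) and in 7.86% of all windows. The bases before the start of Hspa1a (chr17:34972157-34972406, minus strand) and Hspa1b (chr17:34959239-34959488, minus strand) are shown because these neighbours had the steepest falls. Of their 250 bases 247 are the same (98.8%), and the core, in capitals, begins 104 bases before the start in both. Their transcripts are near-identical as well, and reads that map to both genes are counted for neither.
Hspa1a: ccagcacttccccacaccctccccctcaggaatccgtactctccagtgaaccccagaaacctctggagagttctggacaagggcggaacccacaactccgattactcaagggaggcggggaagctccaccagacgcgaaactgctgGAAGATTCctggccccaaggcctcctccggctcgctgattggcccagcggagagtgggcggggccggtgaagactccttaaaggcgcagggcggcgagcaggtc
Hspa1b: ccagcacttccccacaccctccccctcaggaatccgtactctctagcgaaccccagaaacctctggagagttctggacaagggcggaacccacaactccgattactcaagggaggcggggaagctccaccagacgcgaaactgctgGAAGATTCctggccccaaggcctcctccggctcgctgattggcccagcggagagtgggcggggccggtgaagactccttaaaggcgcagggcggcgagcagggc
Over the genes called lower the core stood in 5.18% of windows, and over all tested genes in 5.82%.

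Of 26 genes of the unfolded protein and amino acid responses 9 were called higher (34.6%, beside 20.8% of all genes) and 4 lower, with a median of 0.29. After the offset for length the median was 0.02, with 6 called higher and 5 lower. Psat1, of serine synthesis, rose from 13.1, 21.6 and 10.3 CPM to 81.0, 73.6 and 118 CPM (2.55, SE 0.266, adjusted p = 1.32e-05) and was called in every fit, as were Sdf2l1 (1.45), Manf (1.14) and Xbp1 (0.91) of the endoplasmic reticulum. Atf4, the factor of the amino acid response, was at 0.24 (adjusted p = 0.285), and Ern1 (-1.87) and Atf6 (-1.33), the sensors of unfolded protein, fell. Hspa5, the chief chaperone of that compartment, was at -0.19 (adjusted p = 0.421).

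Nearly all tested genes of the respiratory chain and the cytosolic ribosome were called higher. Of 77 nuclear-encoded genes of the respiratory chain 71 were called higher and 0 lower, with a median of 1.29. Ndufa1, a small subunit of complex I, rose from 45.3, 54.0 and 44.0 CPM to 124, 206 and 249 CPM (1.99, SE 0.235, adjusted p = 3.06e-05), and Uqcr11 of complex III from 85.4, 119 and 77.7 CPM to 246, 340 and 402 CPM (1.79). Atp5b, a catalytic subunit of the ATP synthase, rose less, from 463, 460 and 405 CPM to 685, 695 and 727 CPM (0.66, SE 0.158, adjusted p = 0.00313). Of 77 cytosolic ribosomal proteins 75 were called higher and 0 lower, with a median of 1.51. The ribosomal list took 0.281% to 0.345% of the counts in WT and 0.566% to 0.97% in 5xFAD. Replicate 3 was the highest 5xFAD library for 73 of the 75.

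These are short genes, and the length offset took up part of their rise. With it the respiratory median was 0.51, with 40 of 77 called higher and 0 lower, and the ribosomal median was 0.83, with 60 of 77 called higher and 0 lower. In the 12-library fit 40 respiratory and 43 ribosomal genes were called higher and 0 lower, out of the 264 genes called higher in that fit. In every fit 25 respiratory and 38 ribosomal genes were called higher. Ribosomal genes have near-identical pseudogenes, so their counts are uncertain. Of 9 mitochondrially encoded genes 7 were called higher, led by the ribosomal RNAs mt-Rnr1 (2.16) and mt-Rnr2 (1.99), and with the offset the list's median was -0.08. Of 30 genes of glycolysis and hypoxia 10 were called higher and 5 lower. Gapdh (1.35), Tpi1 (1.29) and Aldoa (0.87), enzymes of the middle of the pathway, rose in every fit, while Hk1 (-1.16), Hk2 (-0.45) and Pfkfb3 (-1.01), which control its entry, fell. Ddit4, a hypoxia-inducible brake on mTORC1, rose from 3.62, 2.28 and 1.47 CPM to 32.6, 20.3 and 7.84 CPM (2.84, SE 0.463, adjusted p = 0.000232), highest in replicate 1. Ddit4 was not called with the term for sex (1.36, adjusted p = 0.0819) or in the 12-library fit (adjusted p = 0.143). Of 24 cell cycle genes 4 were called higher (16.7%, beside 20.8% of all genes) and 0 lower, among them Cdk1 (2.06). Mki67, the proliferation marker, had 6 counts in WT and 6 in 5xFAD.

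**Figure D3:**
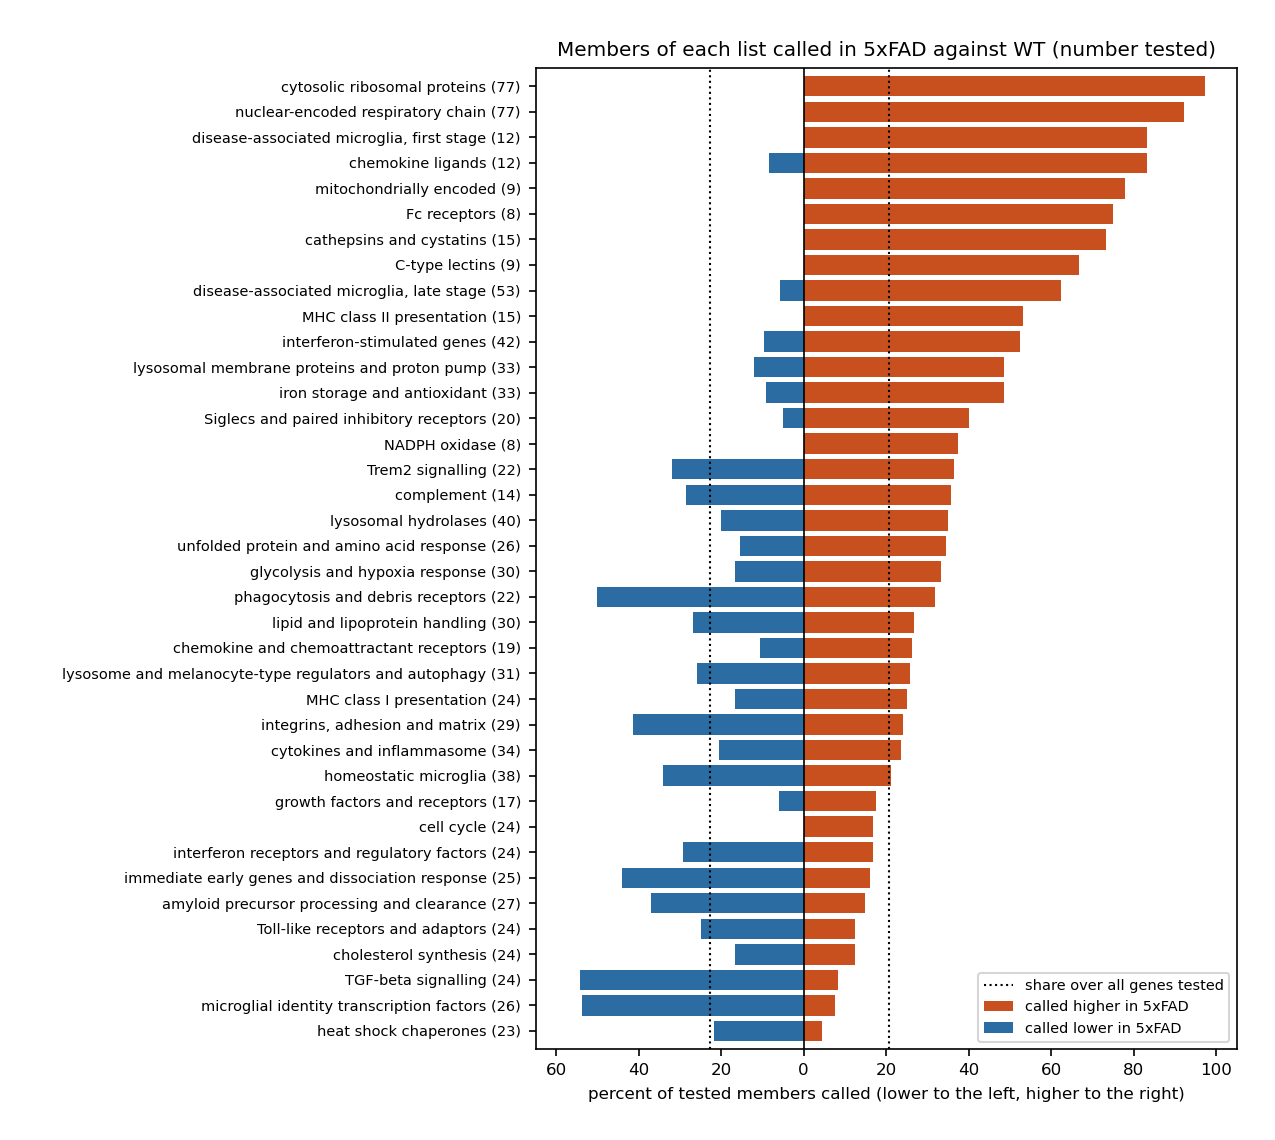
Percent of the tested members of each list called higher (orange, to the right) or lower (blue, to the left) in 5xFAD, with dotted lines at 20.8% and 22.7%, the shares over all tested genes. Ribosomal, respiratory and first-stage disease-associated genes lie far to the right, and TGF-beta and identity genes reach furthest to the left.

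**Figure D4:**
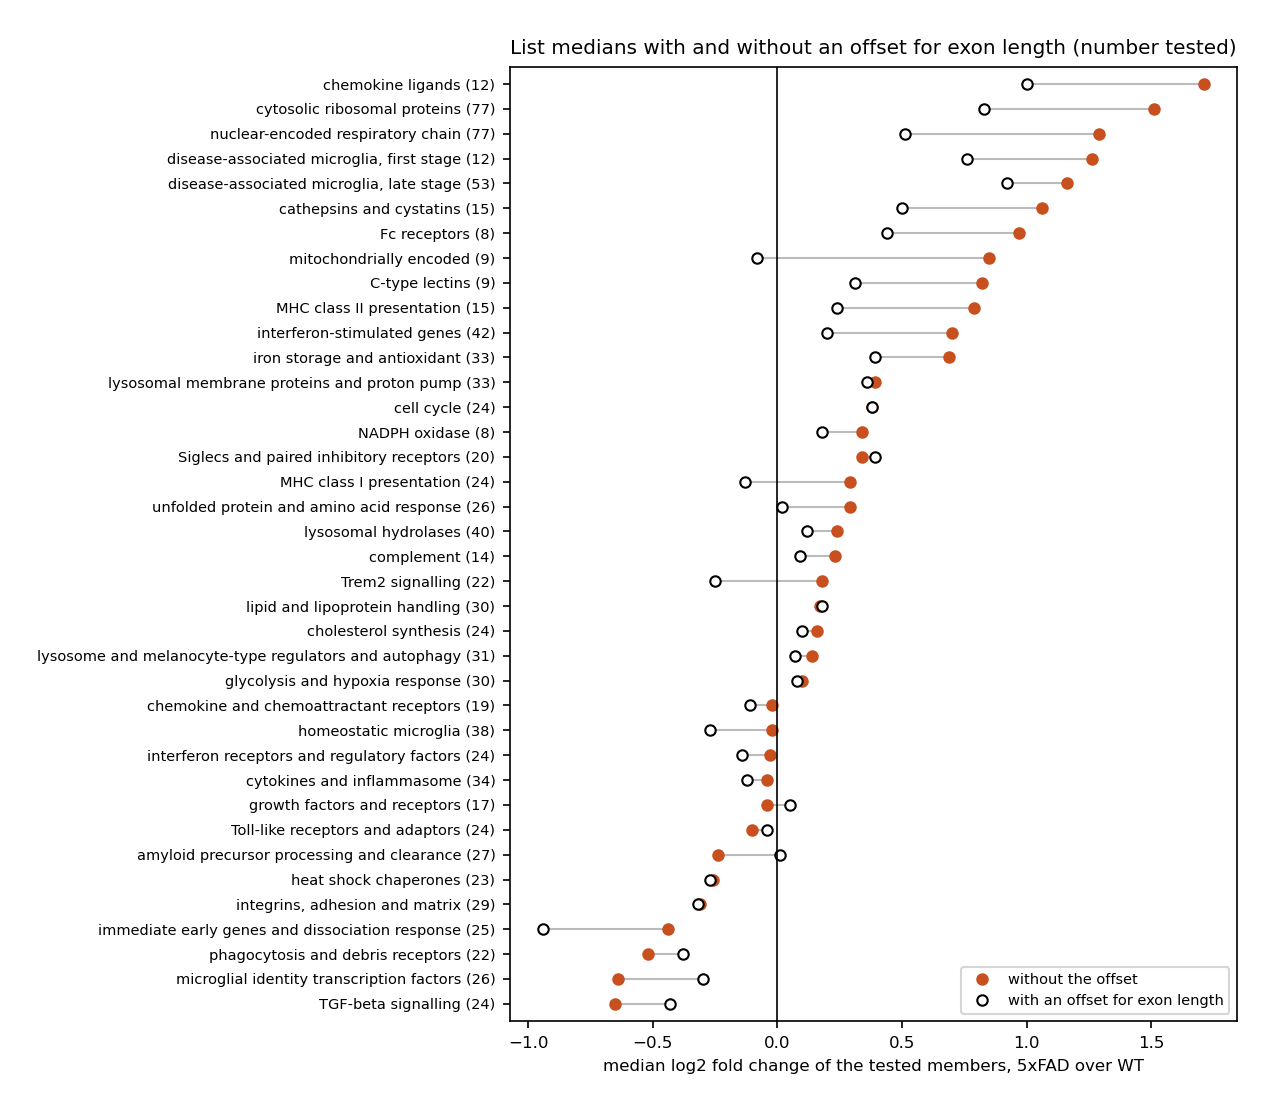
Median log2 fold change of each list without (filled) and with (open) an offset for exon length. The ribosomal median goes from 1.51 to 0.83 and the interferon-stimulated median from 0.70 to 0.20, while the late disease-associated median goes from 1.16 to 0.92.

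Genes that make and clear the amyloid peptide were mostly level or lower. Of 27 tested 4 were called higher and 10 lower, with a median of -0.24, which was 0.01 with the length offset. The mouse App gene was at 128, 118 and 130 CPM in WT and at 76.6, 58.1 and 62.7 CPM in 5xFAD (-0.92, SE 0.174, adjusted p = 0.000662), and was not called with the length offset (-0.14, adjusted p = 0.542). The counts are on mouse genes, so this value does not check for the human transgenes. Psenen, a subunit of gamma-secretase (1.21), and Itm2b, an inhibitor of APP processing (0.72), rose, while Adam10, the alpha-secretase, Bace1 (-1.27) and the sorting receptor Sorl1 (-1.18) fell. Ide, a protease of the peptide, was at -0.48 and did not pass the test.

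Integrins and matrix genes were called lower more often than higher, 12 against 7 of 29. Itga6 fell from 292, 243 and 260 CPM to 128, 98.6 and 95.3 CPM (-1.30, SE 0.176, adjusted p = 6.8e-05), Itga9 by 1.68 and Itgb1 by 0.97, while the tetraspanin Cd81 rose by 0.78 and Mmp12, an elastase of macrophages, from 1.26, 1.71 and 1.47 CPM to 5.08, 3.05 and 11.5 CPM (2.03). Cd44, a receptor for hyaluronan, had 3 counts in WT and 49 in 5xFAD (ratio 8.0, interval 2.58 to 40.1).

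Some of the largest changes lay outside these functions. Among the 20 largest rises, Wfdc17, a secreted protein of activated macrophages, went from 0.315, 2.84 and 0 CPM to 17.0, 36.8 and 51.9 CPM (log2 fold change 5.27, from 7 counts in WT and 461 in 5xFAD). Fhl3, a LIM-domain protein, was at 0.472, 1.14 and 0 CPM in WT and at 22.3, 17.3 and 6.64 CPM in 5xFAD (4.78, from 5 and 351 counts), Actr3b, of the actin-branching complex, was at 4.71 (from 4 and 181 counts) and Hebp1, a haem-binding protein, at 4.05 (adjusted p = 1.19e-05, from 25 and 765 counts). S100a1, a calcium sensor, rose from 5.35, 4.55 and 5.86 CPM to 19.0, 34.7 and 42.8 CPM (2.57) in every fit. Among the 20 largest falls beyond the stress genes were Cacnb2, a calcium channel subunit (-2.55), Klf12, a repressor (-2.41), Notch1, a cell contact receptor (-2.28), and the orphan receptor Gpr165 (-2.13). Klf12 fell from 36.5, 46.6 and 49.8 CPM to 8.76, 6.3 and 9.65 CPM (SE 0.253, adjusted p = 1.32e-05). Of the genes named among these largest changes, S100a1 alone was called in every fit.

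The 178 and 25 genes called the same way in all 17 fits spread over most functions. Among the 25 were Fos, Hspa1a and Hspa1b, which reached the filter's level in at most 1 5xFAD library and had to differ. Besides those above, and chosen for naming after their values were seen, the risers included Cd52 (2.24), a glycoprotein of leukocytes, Plaur, the urokinase receptor, Mif (2.06), a cytokine, Gpr65 (2.03), a proton-sensing receptor, Ramp1 (1.94), a subunit of the CGRP receptor, Tspo (1.57), the mitochondrial protein imaged as a sign of microglial activation, and Aif1 (1.26), which encodes Iba1. Plaur was at 12.4, 9.67 and 20.5 CPM in WT and at 47.6, 54.3 and 76.6 CPM in 5xFAD. The 25 that fell included Dock4 (-2.03), Dock2 and Dock8 (-1.5), exchange factors for small GTPases, Qk (-1.70), an RNA-binding protein, and Klf3 (-1.45) and Foxn3 (-1.38), transcription repressors. Dock4 was at 219, 247 and 255 CPM in WT and at 54.2, 58.7 and 64.5 CPM in 5xFAD (SE 0.171, adjusted p = 2.33e-06). By function, the share called higher in every fit was 6 of 12 first-stage genes, 8 of 53 late-stage genes, 38 of 77 ribosomal genes, 25 of 77 respiratory genes, 6 of 33 lysosomal membrane and pump genes and 6 of 33 iron and antioxidant genes, and 0 of 42 interferon-stimulated genes, beside 1.7% over all genes. Genes too low to be tested in some fits count as not called here, and the part of level in these shares was not tested.

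The calls of some named genes rested on the fit. With the term for sex 20 of the called genes named in the text did not pass the test: Bace1, Ccl5, Ddit4, Dgat2, Dst, Gclc, Hif1a, Hk2, Hsph1, Ireb2, Irf7, Isg15, Mtor, Myc, Ncf4, Ncoa4, Siglech, Sorl1, Tlr3 and Vegfb. Under the length offset 58 did not pass it: Abca1, App, Atf3, Atp6v0a1, Atp6v0b, Atp6v1g1, B2m, Bace1, Batf, Bst2, C1qa, C1qb, C1qc, Ccl12, Ccl25, Ccl5, Cd14, Cd74, Cebpb, Cst3, Cstb, Ctss, Ctsz, Cyba, Fcgr1, Fcgr4, Hcst, Hexa, Hif1a, Hk1, Hk2, Hmox1, Hsph1, Ifit3, Ifitm3, Inpp5d, Ireb2, Isg15, Itm2b, Ly96, Ms4a6d, Mtor, Myc, Ncf4, Ncoa4, Pdcd1, Plin2, Psenen, Psme1, Psme2, Rptor, Siglech, Sorl1, Stat3, Syk, Tfe3, Tgfb1 and Vegfb. Dst alone was called the other way.

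**Figure D5:**
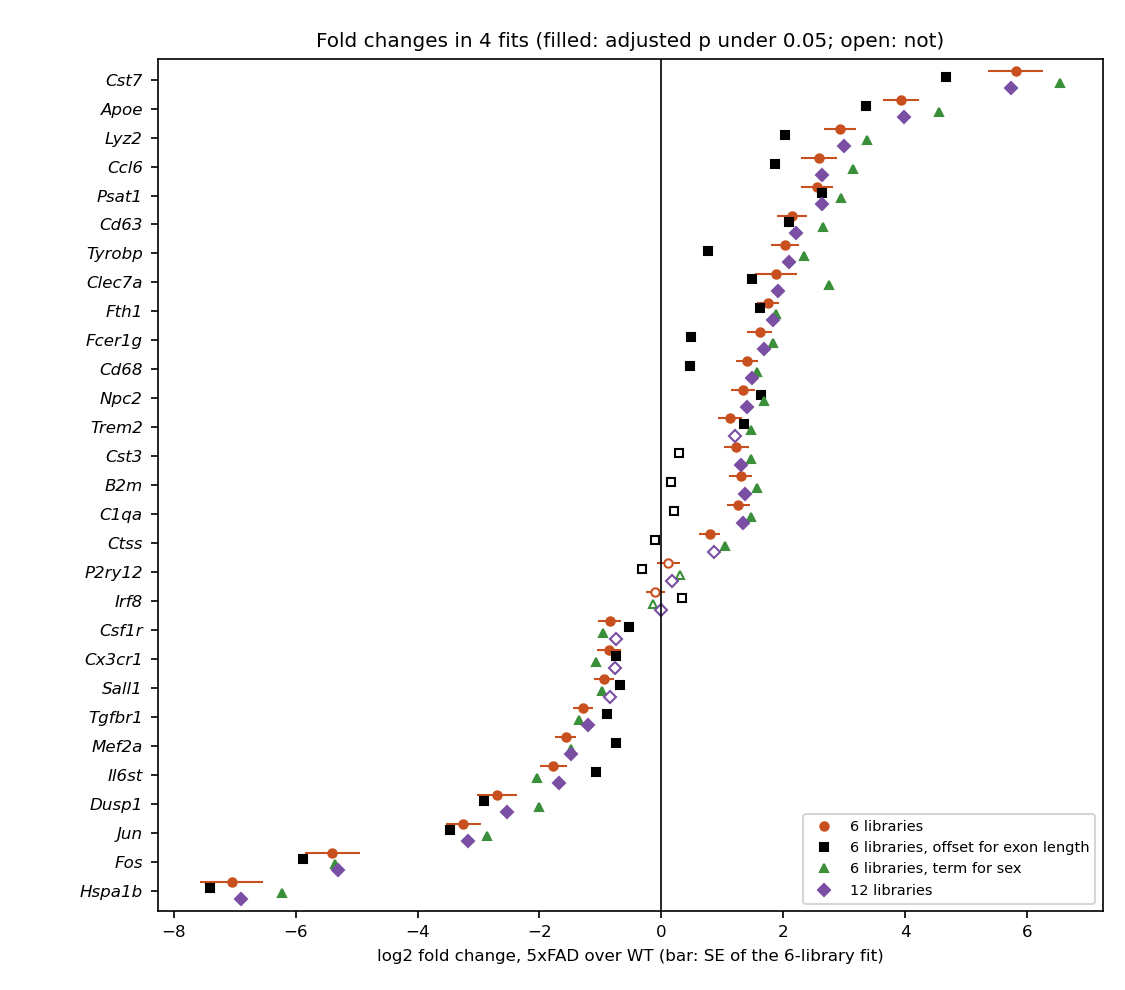
Log2 fold change (horizontal axis) of 29 genes in 4 fits: 6 libraries (with its SE as a bar), with an offset for exon length, with a term for sex, and with all 12 libraries aged 9 months. Filled markers have an adjusted p under 0.05. Apoe, Cst7, Fos and Hspa1b are filled in all 4, while Cst3, B2m, C1qa and Ctss are open with the length offset.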

How the data were processed

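RNA was measured in 3 WT and 3 5xFAD libraries of sorted microglia. The deposited files hold raw read counts per gene that the authors made with STAR 2.5.2b, per the submitters' processing notes, which also name bcl2fastq, Picard 2.17.11, Subread and featureCounts and the build mm10. Which annotation they counted on is not given in the sources used here. Only the unstranded count column was used, so reads over overlapping genes on opposite strands were counted for neither gene. Of 54146 gene identifiers, 52480 were found with the same version in the GENCODE M21 annotation of GRCm38, 54079 regardless of version, and 67 had no match.

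Genes passing edgeR's filterByExpr were scaled by TMM and compared in the 6 libraries by quasi-likelihood F-tests (edgeR 4.0.16, R 4.3.3), with Benjamini-Hochberg adjustment over all genes tested and a threshold of 0.05. The fit was tested on simulated data with 200 changed genes. The SE is that of the log2 fold change, derived from the F statistic. Levels are TMM-scaled CPM per library and are not compared between genes. Ratios of low counts carry exact 95% intervals, which cover counting error only, as does the floor of 3 counts.

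The main fit, its members and the gene lists were chosen with earlier results of these data known. Genes named are a fixed set of 26, the 20 largest rises and 20 largest falls at 10 CPM or more without overlap, up to 6 called members of each list each way, its highest-level member, all members of lists with up to 8 tested, and the 10 genes with most counts, except some that are not reported here. Alternatives were RLE size factors, no filter, DESeq2 1.42.0, limma 3.58.1 voom, 12 libraries, a replicate block, a term for sex, thinning, and leaving out each library. Offsets for exon length and GC content were chosen after seeing the data.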

Additional observations from a re-analysis of the deposited data

How the results depend on the processing

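The counts of called genes moved by over 1.5 times in 4 of the 16 alternatives. The 12-library fit called 290 genes (264 higher, 26 lower, and 1637 at an unadjusted p under 0.05), the exon-length offset 2535 (1375 and 1160), libraries thinned to the shallowest 3002 (1430 and 1572 of 7331 tested), and the fit without WT replicate 1 2841 (1321 and 1520). Leaving out 1 library at a time gave 2841 to 4753 calls, 1321 to 2392 higher and 1520 to 2361 lower. Of the 199 named genes with a call, 70 were called the same way in the 12-library fit, 140 with the exon-length offset and 179 with the term for sex. With the exon-length offset the sign turned for the called genes C1qb (-0.03), Ctss (-0.10), Dst (0.69) and Ncf4 (-0.06), and for the uncalled Atf4 (-0.24), Dusp6 (-0.06), Fcgrt (-0.19), H2-D1 (-0.06), Hsf1 (0.20), Hspa8 (0.07), Hvcn1 (-0.07), Il6 (-0.04), Irf8 (0.34), Lgmn (-0.37), Mitf (0.13), P2ry12 (-0.31), Tfeb (0.31), Tlr4 (0.09), Tmem119 (-0.43) and Tnf (-0.27). Other turns of sign were of genes that did not pass the test: Hspa8 (0.04) and Tfeb (0.03) with 12 libraries, Hspa8 (0.01) and Tfeb (0.01) with DESeq2, Hspa8 (0.01) and Tfeb (0.02) with RLE size factors, Hvcn1 (-0.01) and Tfeb (0.04) with limma voom, Hspa8 (0.01) and Tfeb (0.04) with no filter, Hspa8 (0.08), Hvcn1 (-0.05), Tlr4 (0.06) and Tmem119 (-0.02) with a GC offset, Hspa8 (0.13), Hvcn1 (-0.13), Lgmn (-0.14), Mitf (0.02), Ncf1 (-0.01) and Tmem119 (-0.16) with a term for sex, Fcrl1 (-0.19), Hvcn1 (-0.14) and Tfeb (0.00) with thinning. Leaving out single libraries turned the sign of Cybb (-0.11 to 0.77), Dnajb1 (-0.26 to 0.08), Hspa8 (-0.18 to 0.11), Hvcn1 (-0.06 to 0.10), Itgax (-0.06 to 0.49), P2ry12 (-0.02 to 0.29), Tfeb (-0.21 to 0.16) and Tmem119 (-0.09 to 0.19), none of which passed the test. Named genes that were still tested but lost their call without 1 library were Dst and Hk2 without 5xFAD replicate 1, Bace1, Ccl25, Dst, Hif1a, Hk2, Itgb2, Ncoa4 and Siglech without 5xFAD replicate 2, Dst, Lpl, Plin2, Siglech and Tgfb1 without 5xFAD replicate 3, Bace1, Dst, Fcgr1, Fcgr4, Hif1a, Hk2, Isg15, Lpl, Mtor, Ncf4, Ncoa4, Plin2 and Siglech without WT replicate 1, Dst, Hk2 and Myc without WT replicate 2, Ccl25, Dst, Gaa, Hif1a, Hk2, Ncf4, Ncoa4, Plin2, Siglech and Tgfb1 without WT replicate 3. Named genes that no longer passed the filter are not in this list. Of 236 named genes, 230 were tested without 5xFAD replicate 1, 232 without 5xFAD replicate 2 and 233 without WT replicate 1. The cause of these changes was not tested, except that thinning tests fewer genes and leaving out a library uses fewer samples. Replicate numbers did not pair the samples: the correlations of same-numbered deviations were 0.12, -0.00466 and -0.142. A fit with the replicate number as a block called 4433 genes (2090 higher, 2343 lower). Depth limits genes of low count, since WT replicate 3 held 605376 counts and 12821 genes with counts could not be tested.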
